A study of Mus musculus with 28 samples.

Results

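Libraries of the PDGFRb sort, which was set up to collect mural cells, were compared between brains with lung cancer metastasis and non-tumor brain. The RNA of the lung libraries goes against the label of mural cells: in 3 of the 4, core pericyte RNA stood at 0.565% to 1.45% of the non-tumor mean, and Krt8, a keratin gene of epithelia, was high in all 4. They are therefore called by their sort. The 9 libraries were those whose titles name the PDGFRb sort together with lung or with healthy brain, 4 from lung brain metastasis (BrM) and 5 from non-tumor brain, of 28 libraries in the series. All mice, the non-tumor ones included, were PDGFRβ-CreERT2; Rosa-tdTomato animals given 2 mg of tamoxifen a day for 5 days, so that cells expressing Pdgfrb at that time, and their descendants, carry the red protein tdTomato. Lung BrM grew from Sv2T3-BrM1 cells injected into the heart, and non-tumor brains were sorted in the same way. Per the labels, cells positive for CD45, CD11B or EPCAM were gated out, which was meant to remove immune and cancer cells, before tdTomato-positive (PDGFRb sort) or CD31-positive (CD31 sort) cells were collected. As further groups, 4 PDGFRb libraries of breast BrM, grown from PyMT-BrM3 cells, entered the fit and a side comparison, and 5 CD31 libraries of lung BrM served as the endothelial counterpart. Each metastasis comes from a single cancer line, and mouse ages are not given in the sources used here. The lung labels 55169-70 and 56195-56520 each name 2 mouse numbers, so those libraries may hold pooled brains.

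Pericytes lie inside the capillary basement membrane and are held to the vessel by endothelial PDGF-B acting on PDGFRb. In the brain they are known for maintaining the blood-brain barrier, while smooth muscle cells of arterioles contract to set blood flow. Keratins 8 and 18, encoded by Krt8 and Krt18, form the intermediate filaments of simple epithelia and are not part of the mural programme.

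Totals were 13.4 M to 20.4 M counts in the lung libraries and 14.9 M to 22.5 M in the non-tumor libraries, with 17871 to 19473 and 17004 to 22752 genes detected. A gene with 3 counts stood at 0.12 to 0.242 CPM (the TMM-scaled unit of library share used throughout, counts per M counts). Library kits of the SMART-Seq and Nextera type keep no strand and used no molecular barcodes, so counting intervals and floors cover counting error only, and p-values measure the spread between these libraries. A gene was called at an adjusted p under 0.05 in edgeR's quasi-likelihood test with Benjamini-Hochberg adjustment over 17028 genes, of which 17.5% were called, 1687 higher (9.91%) and 1290 lower (7.58%) in lung BrM. The breast BrM library of mouse 51950 belongs to neither group but enters the filter, the scaling and the estimate of the spread. Without it 18081 genes were tested, and 3512 (19.4%) were called higher and 3449 (19.1%) lower, while leaving out lung mouse 54957, 55169-70 or 56195-56520 or non-tumor mouse 56727 or 56740 gave 652 to 846 genes lower. The cell type labels of the libraries from non-tumor mouse 54135 go against their titles. The one titled PDGFRb is used here and held 876 CPM of Pdgfrb and 4.11 CPM of the endothelial gene Pecam1.

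The genes behind the gate split the lung libraries. Lung values are given for mice 51435, 54957, 55169-70 and 56195-56520 in that order, and non-tumor values for mice 53680, 54132, 54135, 56727 and 56740. Pdgfrb, the receptor that drives the reporter, stood at 465, 39.5, 38.4 and 45.3 CPM in lung BrM, against 1156, 883, 876, 1485 and 1485 CPM in non-tumor brain. The library of mouse 51435 was thus at 39.5% of the non-tumor mean and the other 3 at 3.26% to 3.85%, and the groups did not overlap. The fall was 3.0 ± 0.75 on the log2 scale (SE, adjusted p = 0.0147), and without mouse 51435 the change was -4.95 (adjusted p = 1.48e-05).

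Krt8 went the other way in every lung library. It stood at 2490, 3493, 2893 and 4335 CPM in lung BrM, against 0.895, 8.85, 3.14, 0.901 and 4.26 CPM in non-tumor brain, a log2 change of 9.83 ± 0.76 (adjusted p = 3.16e-06) with no overlap. Per transcript length, the authors' FPKM values put Krt8 at 1883 and Pdgfrb at 27.5 FPKM on average in lung BrM, and Krt8 at 2.29 and Pdgfrb at 252.1 FPKM in non-tumor brain. Mouse 51435, whose Pdgfrb was highest among the lung libraries, had the lowest Krt8 of them, though still at 2490 CPM.

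The markers that the gate was to remove were low. Epcam, the epithelial adhesion molecule of the gate, stood at 5.93, 8.14, 34.1 and 18.1 CPM in lung BrM, against 0, 6.2, 0, 1.04 and 0.12 CPM in non-tumor brain, and the groups overlapped. Its log2 change of 3.49 ± 1.25 did not pass the test (adjusted p = 0.0709), though it did without non-tumor mouse 54132 (log2 change 5.67, adjusted p = 0.00916). Epcam was higher in breast BrM, at 94.2, 77.5, 213 and 286 CPM. Ptprc, which encodes CD45, was at 1.74, 0.403, 16.4 and 1.2 CPM in lung BrM and at most 4.74 CPM in non-tumor brain, and Itgam, the gene of CD11B, stayed at or under 3.3 CPM.

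**Figure D1:**
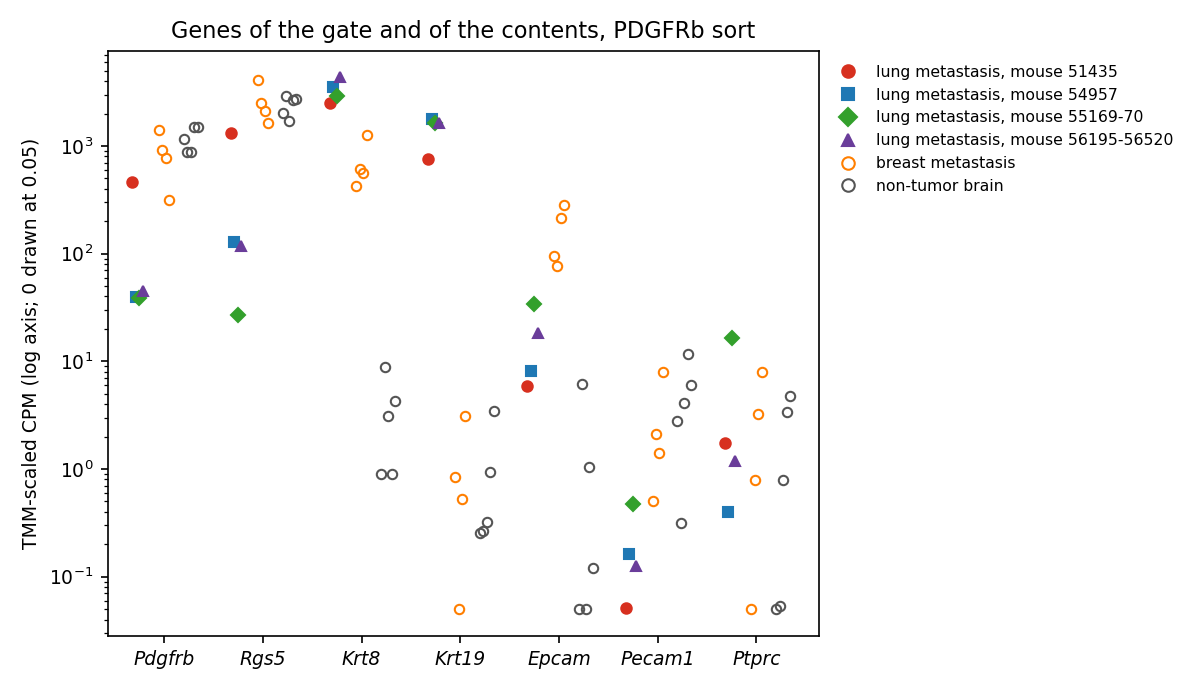
Level of Pdgfrb, Rgs5, Krt8, Krt19, Epcam, Pecam1 and Ptprc in each PDGFRb library (CPM, log axis; points are libraries, for each gene from left to right lung BrM by mouse, breast BrM and non-tumor brain; values of 0 are drawn at 0.05). Pdgfrb in the 3 lung libraries other than mouse 51435 lies between 38.4 and 45.3 CPM, under every non-tumor library, while Krt8 lies between 2490 and 4335 CPM in all 4 lung libraries and at or under 8.85 CPM in the 5 non-tumor libraries.

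Pericyte genes were lower together in lung BrM. Of 21 pericyte genes, 14 fell and none rose, beside 7.58% of all genes called lower, and the median log2 change of the list was -3.38 against -0.03 over all genes tested. In 19 of the 21 genes every lung library lay under every non-tumor library, beside 16.8% of all genes. Summed over the list, pericyte RNA came to 9445, 383.1, 255.8 and 436.3 CPM in lung BrM, against 20110 to 36710 CPM in non-tumor brain. The library of mouse 51435 therefore stands apart from the other lung libraries in most mural results. Without it all 21 pericyte genes fell, beside 9.29% of genes called lower and 8.06% higher in that fit. CPM is a share of the library, so fewer pericytes, less RNA per pericyte and more RNA from other cells cannot be told apart.

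The 8 genes of a core pericyte set (Pdgfrb, Rgs5, Kcnj8, Abcc9, Atp13a5, Higd1b, Cox4i2 and Art3) gave a single measure of pericyte RNA per library. Their geometric mean was 41.3%, 1.45%, 0.565% and 1.33% of the non-tumor mean in the lung libraries. The 5 non-tumor libraries themselves ranged from 66.2% to 128%. All 8 genes lay under every non-tumor library in all 4 lung libraries, and 4 of the 8 passed the test.

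Rgs5, a regulator of G-protein signalling and a standard pericyte marker, stood at 1331, 127, 27.1 and 119 CPM in lung BrM, against 2035, 2937, 1703, 2655 and 2748 CPM in non-tumor brain. The fall was 2.59 ± 0.82 on the log2 scale (adjusted p = 0.0437), and the change was -4.84 without mouse 51435. Atp13a5, a P-type ATPase known as a marker of brain pericytes, stood at 453, 3.87, 7.72 and 2.71 CPM in lung BrM, against 1972, 2684, 1975, 3527 and 2629 CPM in non-tumor brain. It fell by 4.45 ± 1.32 (adjusted p = 0.0319), and its change was -9.16 without mouse 51435. In 3 of 4 lung libraries it was thus almost gone, while mouse 51435 kept 17.7% of the non-tumor mean.

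Kcnj8 and Abcc9, the pore and the regulatory subunit of the ATP-sensitive potassium channel of mural cells, showed the same split. Kcnj8 stood at 832, 26.9, 2.83 and 20.8 CPM in lung BrM, against 1149, 1805, 880, 2162 and 1435 CPM in non-tumor brain. Neither gene passed the test with all libraries (Kcnj8 log2 change -2.75 ± 1.16, adjusted p = 0.123, and Abcc9 -3.0 ± 1.0, adjusted p = 0.0535). Both did without mouse 51435 (log2 changes -6.57 and -6.02, adjusted p = 9.89e-05 and 3.65e-05). Cox4i2, a subunit isoform of cytochrome c oxidase, and Higd1b likewise missed the threshold with all libraries (adjusted p = 0.0824 and 0.0678) and passed without mouse 51435 (log2 changes -7.03 and -5.94). The calls on Rgs5, Atp13a5 and Art3 lay near the threshold with all libraries (adjusted p = 0.0437, 0.0319 and 0.0476). Without mouse 51435 these calls held, at adjusted p = 4.39e-05, 2.13e-06 and 3e-06. Each was lost when any 1 library other than that of mouse 51435 was left out, with adjusted p up to 0.119, 0.0753 and 0.109.

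With all libraries the largest called falls of the list were in Slc38a11, Ecm2 (log2 change -4.88, adjusted p = 0.0103) and Gper1, outside the core set. Atp13a5 of the core set came next. Without mouse 51435 the change of Atp13a5 (-9.16) was larger than those of Slc38a11, Ecm2 (-8.27) and Gper1. Slc38a11, an amino acid transporter gene, stood at 34.4, 0.645, 0.118 and 1.89 CPM in lung BrM, against 386, 360, 271, 446 and 437 CPM in non-tumor brain. Its log2 change was -5.35 ± 1.25 (adjusted p = 0.0105), and -8.84 without mouse 51435. Gper1, a G-protein-coupled estrogen receptor, stood at 210, 6.2, 9.72 and 5.35 CPM in lung BrM, against 1302, 1494, 902, 1596 and 1275 CPM in non-tumor brain, a log2 change of -4.50 ± 1.07 (adjusted p = 0.0112, and -7.63 without mouse 51435). These 2 genes were at 9.06% and 16% of the non-tumor mean in mouse 51435, where the median pericyte gene was at 34.6%. In the other 3 lung libraries the median pericyte gene was at 1.4%, 0.528% and 1.4% of the non-tumor mean. The best kept pericyte gene in the libraries of 55169-70 and 56195-56520 was Anpep, the aminopeptidase CD13, at 39.7, 2.34, 11.8 and 5.35 CPM in lung BrM, against 71.2, 92.7, 84, 121 and 108 CPM in non-tumor brain.

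**Figure D2:**
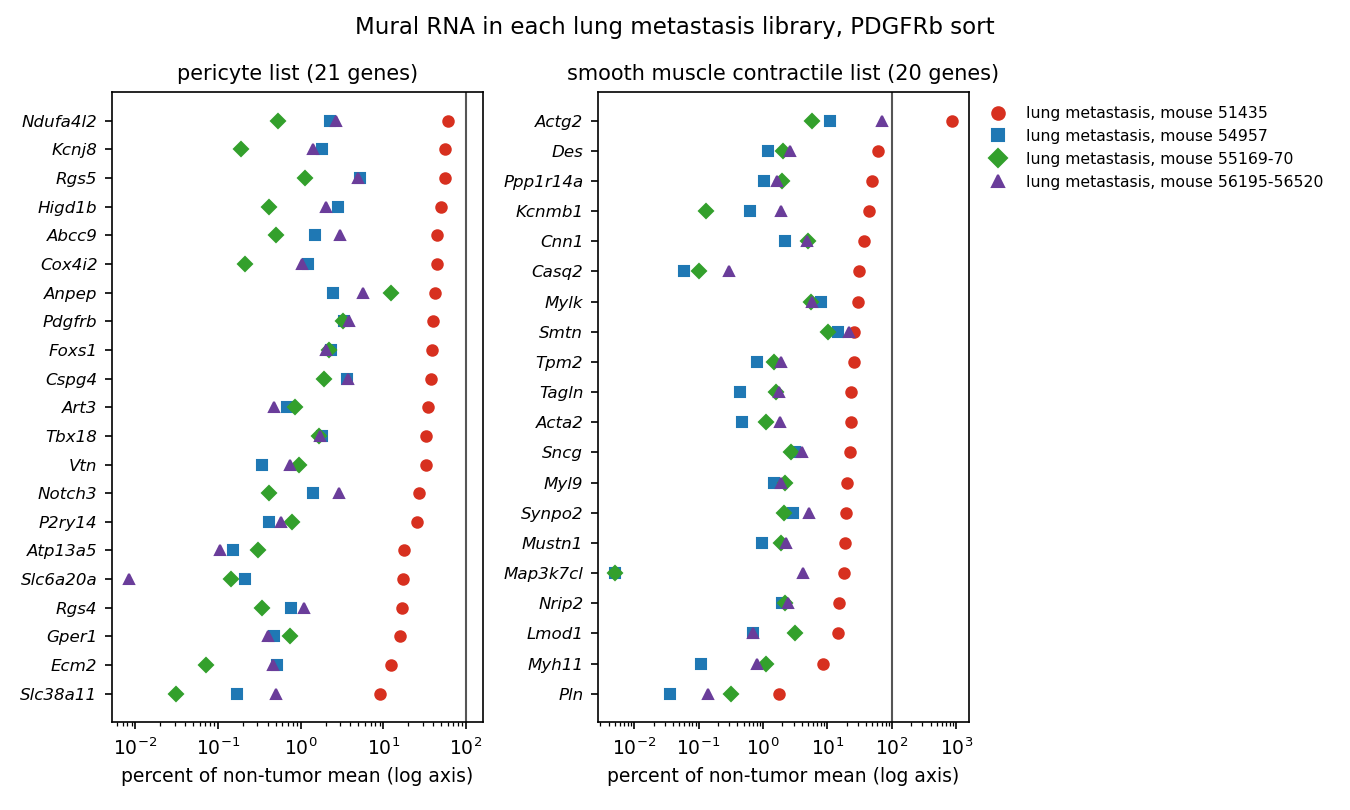
Each pericyte gene (left panel) and each contractile gene of smooth muscle (right panel) in each lung library as a percent of the mean of the 5 non-tumor libraries (log axis, the vertical line marks equality; 1 point per gene and library; values of 0 are drawn at 0.005). Mouse 51435 holds pericyte genes at a median of 34.6%, while the medians of the other 3 lung libraries lie between 0.528% and 1.4%.

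Contractile genes of smooth muscle fell as well. Of 20 genes, 14 fell and none rose, beside 7.58% of all genes called lower, with a median log2 change of -3.75. Without mouse 51435 19 fell, beside 9.29%. Summed, they came to 5635, 334, 454.2 and 586.4 CPM in lung BrM, against 8346 to 37890 CPM in non-tumor brain. The median gene of the list stood at 23.1%, 1.01%, 2.01% and 2.12% of the non-tumor mean, so mouse 51435 kept less of this list than of the pericyte list.

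Myh11, the smooth muscle myosin heavy chain, stood at 132, 1.69, 17 and 12.5 CPM in lung BrM, against 2481, 1658, 492, 1140 and 1960 CPM in non-tumor brain. Its log2 change was -5.25 ± 1.12 (adjusted p = 0.00652), and the change was -7.31 without mouse 51435. Pln, the phospholamban that restrains the sarcoplasmic calcium pump, stood at 4.04, 0.0806, 0.707 and 0.315 CPM in lung BrM, against 268, 381, 92.2, 145 and 238 CPM in non-tumor brain. Its log2 change of -7.42 ± 1.29 (adjusted p = 0.00175, and -9.28 without mouse 51435) was the largest of the list, and it was low in mouse 51435 too.

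Other contractile genes were kept better. Smtn, the cytoskeletal protein smoothelin, stood at 129, 71.5, 49.9 and 106 CPM in lung BrM, against 748, 454, 261, 456 and 543 CPM in non-tumor brain, a log2 change of -2.46 ± 0.43 (adjusted p = 0.0017). Mylk, the myosin light chain kinase, stood at 286, 76.2, 53.1 and 54.3 CPM in lung BrM, against 1401, 1194, 383, 750 and 981 CPM in non-tumor brain, a log2 change of -3.0 ± 0.59 (adjusted p = 0.00387, and -4.04 without mouse 51435). Actg2, the enteric smooth muscle actin, differed between the lung libraries, at 141, 1.77, 0.943 and 11.5 CPM, against 21.5, 25, 1.71, 13.5 and 20.8 CPM in non-tumor brain. Its log2 change of 1.24 ± 1.17 did not pass the test (adjusted p = 0.54), and it was -1.89 without mouse 51435, which alone lay above the non-tumor libraries.

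Genes of perivascular fibroblasts, matrix-producing cells outside the mural layer, split by gene. Of 19 tested, 4 fell (Ogn, Slc22a6, Slc47a1 and Pdgfra) and 1 rose (Col6a3), beside 7.58% of all genes called lower and 9.91% higher, so the share that rose was under that of all genes. Without mouse 51435, 13 fell and none rose, beside 9.29% lower and 8.06% higher. Ogn, the small leucine-rich proteoglycan osteoglycin, stood at 0.563, 0.0806, 0.471 and 0.629 CPM in lung BrM, against 47.2, 54.9, 30.6, 80.4 and 71.2 CPM in non-tumor brain (log2 change -6.99 ± 1.10, adjusted p = 0.000935). Col6a3, a collagen VI chain, stood at 201, 15, 19 and 19.6 CPM in lung BrM, against 14.3, 9.22, 3.14, 5.72 and 10 CPM in non-tumor brain. All 4 lung libraries lay above the non-tumor ones (log2 change 2.91 ± 0.75, adjusted p = 0.0164), but without mouse 51435 the change was 0.98 and not called (adjusted p = 0.148). Slc47a1, a transporter of organic cations, was called lower (log2 change -3.10, adjusted p = 0.0328) with overlapping groups, and 7 of 9 fits that left out 1 library lost the call, as 5 did for Pdgfra and 1 for Slc22a6.

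What still speaks of mural cells in the lung libraries was read against the CD31 sort of lung BrM, which should hold no mural cells. All 28 libraries entered that fit, and of 18548 genes the PDGFRb sort had 1899 (10.2%) at a higher and 1737 (9.36%) at a lower level. Of 21 pericyte genes, the PDGFRb sort had 18 at a higher level and none at a lower one. Without mouse 51435, 13 were still higher, beside 8.31% of all genes, and Abcc9 and Ecm2 were lower, beside 9.09%. With the mouse number as a block (a term that compares the sorts within each mouse), 14 of 21 pericyte genes were higher and none lower, beside 3.94% of all genes (726) called higher and 6.46% lower. Lists of other cells moved the same way, and their part in this comparison was not tested. Of 12 astrocyte genes the PDGFRb sort had 11 at a higher level and 1 (Gja1) at a lower one, with and without mouse 51435, and without it the median log2 change was 4.29 for astrocyte genes and 4.11 for pericyte genes. Gfap, the filament protein of astrocytes, stood at 106.2, 16.2, 36.5 and 20.7 CPM in the PDGFRb sort and at 0 to 1.36 CPM in the CD31 sort. Of 19 fibroblast genes 15 were higher and none lower, beside 10.2% of all genes called higher.

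Single genes remained above the endothelial sort in the 3 lung libraries with little Pdgfrb. On the scale of all 28 libraries, Pdgfrb stood at 465.7, 36.9, 36 and 42.2 CPM in the PDGFRb sort and at 0 to 14.1 CPM in the 5 CD31 libraries of lung BrM (log2 change 4.80 ± 1.07, adjusted p = 0.00213, and 2.88 without mouse 51435, adjusted p = 0.0284). Atp13a5 stood at 454.1, 3.61, 7.23 and 2.52 CPM in the PDGFRb sort and at 0 to 0.573 CPM in the CD31 sort (log2 change 9.57 ± 1.34, adjusted p = 8.65e-06, and 4.86 without mouse 51435). Notch3, the Notch receptor of mural cells, stood at 180.6, 8.81, 2.59 and 18.4 CPM in the PDGFRb sort, against 0 to 0.124 CPM in the CD31 sort, and Myh11 at 131.9, 1.58, 15.9 and 11.7 CPM, against 0 to 0.143 CPM. Even the libraries with the fewest mural reads thus lay above every CD31 library in these genes. For the core genes Kcnj8, Abcc9 and Art3 only the library of mouse 51435 lay above every CD31 library. Kcnj8 stood at 1.95 to 80.2 CPM in the CD31 sort and was as low as 2.65 CPM in the PDGFRb sort.

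Counted over the lists, 14 of 21 pericyte genes and 12 of 20 contractile genes lay above all 5 CD31 libraries in each of the 3 lung libraries other than that of mouse 51435, beside 17.7% of all genes. The pericyte genes were Pdgfrb, Rgs5, Vtn, Atp13a5, Cspg4, Notch3, Higd1b, Ndufa4l2, Cox4i2, P2ry14, Slc6a20a, Rgs4, Slc38a11 and Foxs1. Summed, pericyte genes came to 9461, 358, 239.4 and 405.9 CPM in the PDGFRb sort and to 60.5, 73.4, 151 and 64.1 CPM in the CD31 sort of the same mice. The fifth CD31 library, of mouse 51697, which has no PDGFRb library here, held 243.5 CPM, above the 239.4 CPM in the PDGFRb library of 55169-70. Gut and liver genes summed to 2170, 5372, 4484 and 7692 CPM in the PDGFRb sort and to 93.8 to 506.9 CPM in the CD31 sort. Summed contractile genes did not show this order. They came to 5644, 312.1, 425.1 and 545.5 CPM in the PDGFRb sort and to 507.2, 529.4, 583.1 and 723.7 CPM in the CD31 sort of the same mice, and only mouse 51435 lay above its own CD31 library. Smtn was lower in the PDGFRb sort (log2 change -2.47 ± 0.36, adjusted p = 1.47e-05), at 46.7 to 129.4 CPM against 399.8 to 636.4 CPM in the CD31 sort, so its level in the lung libraries is below that of endothelial libraries.

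**Figure D3:**
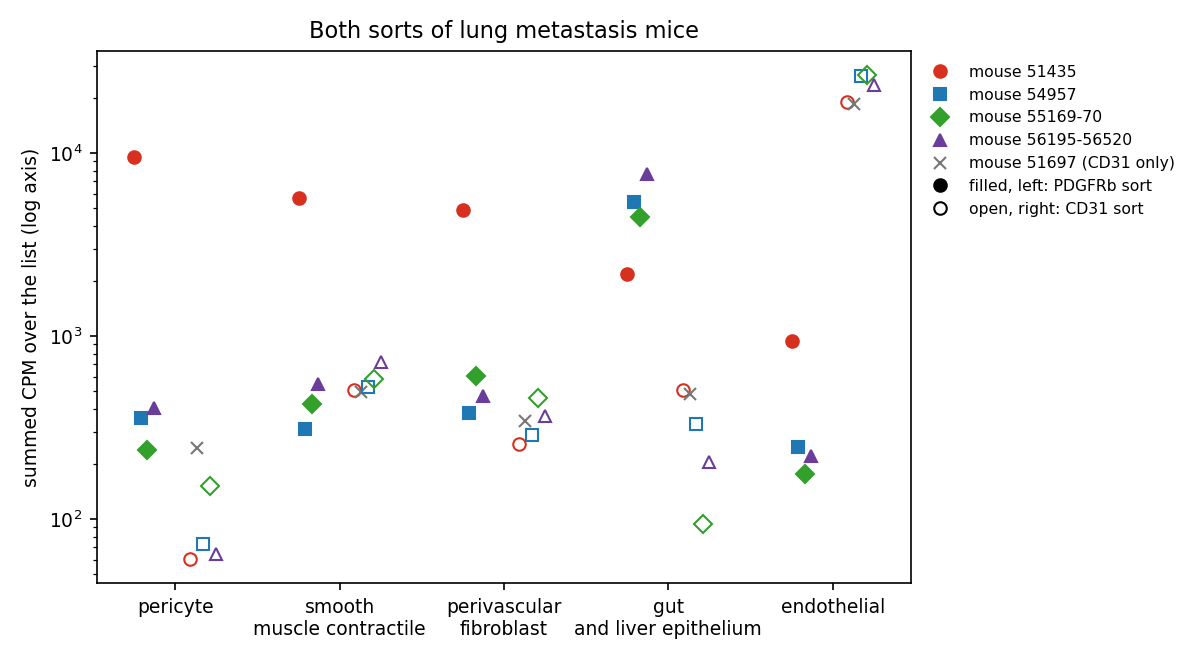
Summed level of 5 gene lists in the PDGFRb sort (filled, left) and the CD31 sort (open or cross, right) of lung BrM (CPM on the scale of all 28 libraries, log axis; points are libraries, coloured by mouse). In the sum of all 21 pericyte genes each PDGFRb library lies above the CD31 library of the same mouse. Endothelial genes sum to 176.1 to 934.3 CPM in the PDGFRb sort and 18520 to 26700 CPM in the CD31 sort.

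Mural genes were then scaled to the core pericyte set in place of the library total, so that a gene moving with that set stays near 0. On the scale of all 28 libraries, the set summed to 83 to 222.5 CPM in the 3 lung libraries other than that of mouse 51435. The CD31 libraries of lung BrM held 25.8 to 223.6 CPM of it. The scale there need not be pericyte RNA alone, so a change on it is not a change per pericyte. With this scale 86.6% of all genes were called higher and 0.417% lower in lung BrM, a scale on which RNA of any other source rises, so only mural genes are described. Without mouse 51435, 21 genes were called lower. Of 21 pericyte genes, 1 was called higher (Anpep, log2 change 2.80 ± 1.29, adjusted p = 0.0349, lost without mouse 55169-70 or any 1 of the 5 non-tumor libraries) and none lower. The 8 genes of the core set define the scale, which fixes their centre near 0. The 13 pericyte genes outside it had a median log2 change of -0.29, with 6 above 0, and ranged from -2.40 for Slc38a11 to 2.80 for Anpep. Atp13a5 was at -1.82 (adjusted p = 0.119) and passed without mouse 51435 (log2 change -2.08, adjusted p = 0.0167). Pdgfrb went the other way, at 1.54 (adjusted p = 0.147), and passed without mouse 51435 (log2 change 1.83, adjusted p = 0.00371). Of 20 contractile genes, 3 were called higher, namely Actg2 (log2 change 4.55, adjusted p = 0.00157), Smtn (3.43, adjusted p = 0.00205) and Mylk (2.34, adjusted p = 0.0278, lost without mouse 54957, 55169-70 or any of 4 non-tumor libraries). Among 19 fibroblast genes, 14 were called higher. With all libraries the other pericyte and contractile genes did not pass the test on this scale.

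Epithelial genes were high in every lung library. Of 24 genes of keratins, junctions and epithelial regulators, 14 rose and none fell, beside 9.91% of all genes, with a median log2 change of 4.93. Summed, the list came to 7146, 11600, 10130 and 13110 CPM in lung BrM, against 42.9 to 167 CPM in non-tumor brain. Mouse 51435, with the most mural RNA, had the lowest epithelial sum of the lung libraries.

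Krt18, the partner of keratin 8, stood at 2312, 3740, 3054 and 3516 CPM in lung BrM, against 0.959, 32.8, 6.04, 1.13 and 4.46 CPM in non-tumor brain (log2 change 8.44 ± 1.04, adjusted p = 0.000144, and 9.86 without non-tumor mouse 54132). Krt19 stood at 760, 1794, 1623 and 1645 CPM in lung BrM, against 0.256, 0.265, 0.323, 0.946 and 3.45 CPM in non-tumor brain (log2 change 10.40 ± 1.20, adjusted p = 8.8e-05, and 11.62 without non-tumor mouse 56740). Krt20, a keratin of intestinal and urothelial surfaces, stood at 240, 441, 242 and 690 CPM in lung BrM and at no more than 0.383 CPM in non-tumor brain (log2 change 10.77 ± 0.81, adjusted p = 2.4e-06). Cdh1, which encodes E-cadherin, the adhesion molecule of epithelial junctions, stood at 413, 657, 703 and 981 CPM in lung BrM, against 3.07, 6.15, 4.01, 1.67 and 2.57 CPM in non-tumor brain (log2 change 7.62 ± 1.14, adjusted p = 0.000596). The claudins Cldn3, Cldn4 and Cldn7 did not follow, at 0 to 2.18 CPM in lung BrM and 0 to 15.9 CPM in non-tumor brain, with adjusted p from 0.191 to 0.87.

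**Figure D4:**
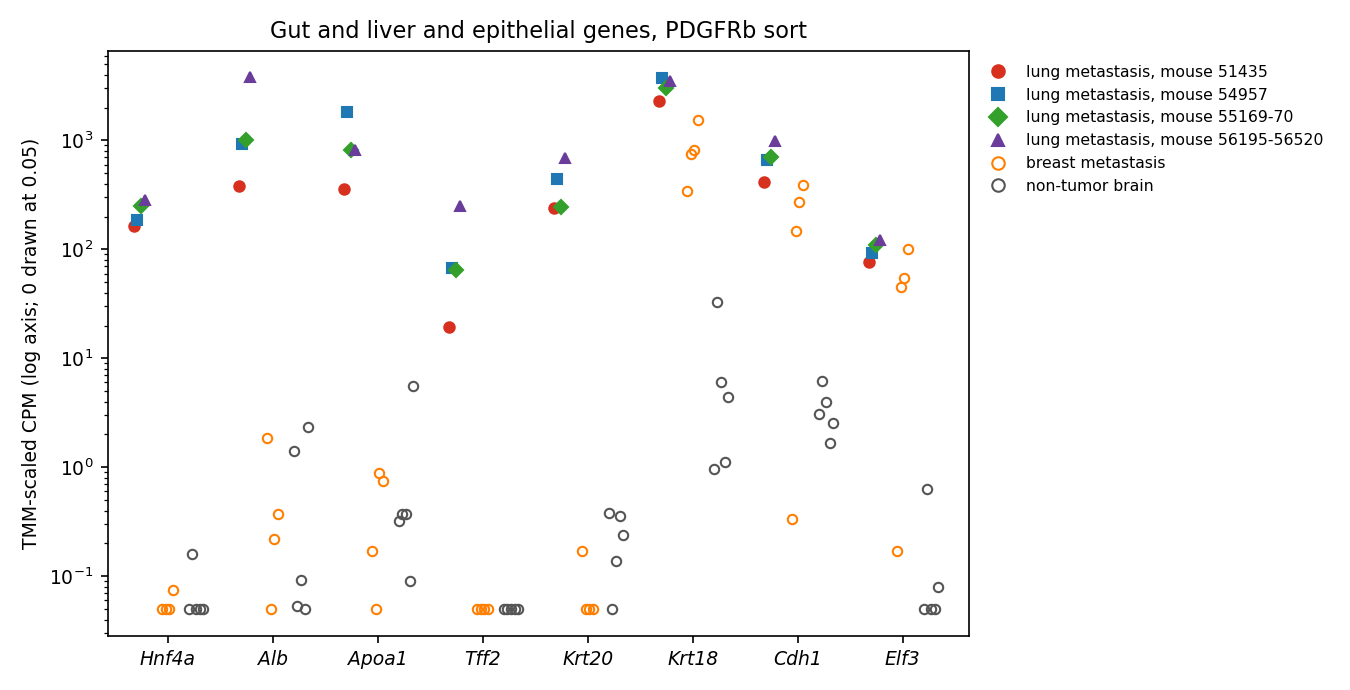
Hnf4a, Alb, Apoa1, Tff2, Krt20, Krt18, Cdh1 and Elf3 in each PDGFRb library (CPM, log axis; points are libraries, for each gene from left to right lung BrM by mouse, breast BrM and non-tumor brain; values of 0 are drawn at 0.05). All 4 lung libraries hold Hnf4a at 163 to 282 CPM, where no non-tumor library exceeds 0.159 CPM.

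Among epithelia, gut and liver genes rose and lung genes mostly did not. Of 20 gut and liver genes tested, 18 rose, beside 9.91% of all genes, and none fell, with a median log2 change of 9.86. Hnf4a, a nuclear receptor that directs the hepatocyte and intestinal programmes, stood at 163, 187, 248 and 282 CPM in lung BrM, against 0, 0.159, 0.0461, 0 and 0 CPM in non-tumor brain (log2 change 12.20 ± 0.91, adjusted p = 2.37e-06, and 13.42 without non-tumor mouse 54132). Alb, which encodes serum albumin, stood at 382, 918, 999.7 and 3787 CPM in lung BrM, against 1.41, 0.053, 0.0922, 0 and 2.33 CPM in non-tumor brain (log2 change 10.92 ± 1.52, adjusted p = 0.000359, 9.86 without mouse 56195-56520 and higher still without non-tumor mouse 56740). Of 12 lung epithelium genes, only Sftpd, the surfactant protein D gene, was called higher, at 0.256, 8.7, 2.71 and 35.9 CPM in lung BrM and 0 to 0.843 CPM in non-tumor brain (log2 change 5.34 ± 1.44, adjusted p = 0.0205). That call was lost without lung mouse 56195-56520 (log2 change 3.65, adjusted p = 0.11), non-tumor mouse 53680 or non-tumor mouse 56727. Nkx2-1, the lung lineage factor, had at most 0.0589 CPM in lung BrM.

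The 10 largest rises among well-measured genes were gut, stomach or liver genes in most cases. Serpina1c, a liver antitrypsin paralogue, stood at 186, 110, 244 and 52 CPM in lung BrM and had no count in non-tumor brain, so it was at least 5292-fold higher against a floor of 3 counts over the 5 libraries. The same bound was at least 4727-fold for Tff3 and 3348-fold for Tff2, trefoil peptides of intestinal and gastric mucus, 2337-fold for Gsta1, a hepatic glutathione transferase, and 2300-fold for Eps8l3. It was at least 2026-fold for the collagen-binding integrin Itga2, 1571-fold for Vsig1, a gastric adhesion molecule, and 1556-fold for Myo7b, a myosin of the intestinal brush border. Serpina1b had 21609 counts in the 4 lung libraries and 3 in the non-tumor ones, a ratio of 11480 (95% counting interval 3928 to 55680). Serpina1b and Serpina1c are near copies of each other, so the split of reads between them is uncertain. Tff3 varied most among the lung libraries, at 4.25, 38.4, 23.5 and 500 CPM.

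The largest falls were of mixed origin. Kcna5, a voltage-gated potassium channel of vascular smooth muscle, stood at 0.0512, 0, 0 and 0 CPM in lung BrM, against 67.5, 29.6, 12.5, 15.5 and 30.2 CPM in non-tumor brain, 1 count against 2981 and a ratio of 0.000535 (95% counting interval 1.35e-05 to 0.00298). Dpysl5, a protein of growing axons, stood at 0.0512, 0, 0 and 0 CPM in lung BrM, against 18.5, 0.795, 154, 33.3 and 16.3 CPM in non-tumor brain. The others were Slc6a11, a GABA transporter of astrocytes, Dpep1, Miat, Dlx6os1, Hs3st3a1, Cyp4f15, Cldn10 and Nol4. Hs3st3a1 had no count in lung BrM, at least 51.4-fold lower, and each fit without 1 library lost its call (adjusted p 0.0573 to 0.094). All but Kcna5, Dpep1 and Hs3st3a1 were highest in the non-tumor library of mouse 54135. The calls on Cyp4f15 and Nol4 were lost in 2 and 3 of the 9 fits without 1 library.

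Markers of other cells were set beside these results, and their part in them was not tested. Beside 7.58% of all genes called lower and 9.91% higher, 7 of 11 neuron genes fell, and of 12 astrocyte genes 7 fell and 1 rose (Sox9, a call lost in 8 of 9 fits without 1 library). Stmn2, a neuronal tubulin regulator, stood at 0.0512, 0.645, 0 and 0 CPM in lung BrM, against 21.9, 0, 204, 61.6 and 24.1 CPM in non-tumor brain, and Slc1a2, the astrocyte glutamate transporter, at 5.99, 5.96, 6.25 and 11.5 CPM, against 41.5, 178, 638, 320 and 494 CPM in non-tumor brain. Summed neuron genes came to 7.72 to 31.2 CPM in lung BrM and 43.3 to 1646 CPM in non-tumor brain, and summed astrocyte genes to 329.7 to 812.8 CPM in lung BrM and 1717 to 5632 CPM in non-tumor brain. Both sums were highest in the non-tumor library of mouse 54135, and the neuron sum was lowest in that of mouse 54132. Of 17 endothelial genes 7 fell and 1 rose (Flt1, log2 change 1.45, lost without mouse 51435, 54957 or any 1 of 3 non-tumor mice), and Pecam1 was at or under 0.471 CPM in lung BrM and at 0.318 to 11.7 CPM in non-tumor brain (a fall whose call was lost in 3 of 9 fits).

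Immune RNA followed single libraries. Of 17 microglia and macrophage genes, Trem2 was called higher (69 counts in the lung libraries and 0 in the non-tumor ones, at least 36.7-fold) and Cd163 lower (0 counts in lung BrM and 117 in the non-tumor libraries, at least 24.5-fold), calls lost in 7 of 9 and all 6 fits without 1 library in which the gene was tested, and none of 12 oligodendrocyte or 4 lymphocyte and neutrophil genes was called. Tyrobp, an adaptor of myeloid receptors, stood at 13.9, 3.14, 111 and 2.77 CPM in lung BrM, against 0.511 to 9.7 CPM in non-tumor brain. The lung library of 55169-70 was the highest in Tyrobp and Ptprc, and its summed microglia and macrophage genes came to 694 CPM, against 120.2 to 368.9 CPM in the other lung libraries and 48.7 to 182.9 CPM in non-tumor brain.

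Genes of mesenchymal state and of the cell cycle gave a further view of the sort. Of 10 mesenchymal genes, beside 9.91% of all genes called higher and 7.58% lower, Fn1 rose and Zeb1 and Zeb2 fell, Zeb1 in 7 of 9 fits without 1 library. Fn1, the matrix protein fibronectin, stood at 2506, 2021, 2823 and 3937 CPM in lung BrM, against 40.9, 54.4, 28.5, 60.3 and 86.8 CPM in non-tumor brain (log2 change 5.70 ± 0.39, adjusted p = 1.29e-06). Zeb2, a repressor of E-cadherin, stood at 22.7, 12.3, 13.6 and 7.55 CPM in lung BrM, against 97.1, 73.5, 70.7, 112 and 108 CPM in non-tumor brain (log2 change -2.72 ± 0.55, adjusted p = 0.00455). High fibronectin thus stood beside high Cdh1 and low Zeb2 in each lung library. Of 32 proliferation genes, 6 rose, beside 9.91% of all genes, and none fell, with a median log2 change of 1.40, and 17 had all lung libraries above the non-tumor ones, beside 19.4% of all genes. Among them the cyclin gene Ccnb2 rose by 2.71 ± 0.59 (adjusted p = 0.00701), while Tk1, the thymidine kinase of S phase, at 80.6, 91.8, 69.8 and 80.6 CPM in lung BrM, against 10.2, 3.29, 14.1, 13.3 and 7.47 CPM in non-tumor brain (log2 change 3.06 ± 0.98, adjusted p = 0.046), lost its call in each fit without 1 library (adjusted p 0.0775 to 0.108).

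Matrix genes divided by library. Of 15 basement membrane genes, Lamb2 and Nid1 fell and Col18a1 rose, few beside the 7.58% of all genes called lower and 9.91% higher. Without mouse 51435 9 of the 15 fell and none rose, beside 9.29% lower and 8.06% higher. Nid1, the linker nidogen, stood at 439.5, 127, 109.9 and 123 CPM in lung BrM, against 448, 498, 336, 719 and 722 CPM in non-tumor brain. The calls on Nid1 and Col18a1 were lost in 7 and 6 of the 9 fits that left out 1 library. Lamb2, a laminin chain of vascular basement membranes, fell by 2.22 ± 0.37 (adjusted p = 0.00129) with no overlap. Of 20 genes of activated stroma, beside 9.91% of all genes called higher and 7.58% lower, 6 rose and 1 fell (Cthrc1, a call lost in 8 of 9 fits without 1 library), and without mouse 51435 5 rose and 6 fell. In mouse 51435 17 of the 20 lay above every non-tumor library, and 5, 5 and 7 in the other 3, beside 29.3%, 33.5%, 34% and 33.3% of all genes.

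Spp1, the secreted phosphoprotein osteopontin, stood at 15100, 15120, 14650 and 9578 CPM in lung BrM, against 227, 576, 197, 270 and 258 CPM in non-tumor brain (log2 change 5.48 ± 0.49, adjusted p = 1.53e-05). At 11450 FPKM on average it stood above Krt8 and Krt18 per transcript length in lung BrM. Timp1, an inhibitor of metalloproteinases, rose by 4.69 ± 0.68 (adjusted p = 0.000513), at 130, 83.4, 56.8 and 41.9 CPM in lung BrM, against 1.61 to 4.32 CPM in non-tumor brain. Tnc, the matrix protein tenascin C, was called higher (log2 change 4.63, adjusted p = 0.0267) through mouse 51435, at 180, 3.22, 3.83 and 15.6 CPM in lung BrM, against 0, 4.03, 1.48, 1.44 and 3.17 CPM in non-tumor brain. Without that mouse its change was 1.79 (adjusted p = 0.262), and the call was also lost without non-tumor mouse 54135, 56727 or 56740.

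Signalling genes that act on mural cells were read from a pair of lists, beside 9.91% of all genes called higher and 7.58% lower. In the PDGF and TGF-beta list, Pdgfc, Smad3 and Smad7 rose and Pdgfd and Tgfbr3 fell, 5 of 14 genes. Pdgfc, a ligand of PDGFRa, stood at 93.8, 126, 127 and 127 CPM in lung BrM, against 14.6, 24.7, 4.57, 9.55 and 15.9 CPM in non-tumor brain (log2 change 3.10 ± 0.88, adjusted p = 0.0265), a call lost without lung mouse 54957, 55169-70 or 56195-56520 or any of 4 non-tumor mice (adjusted p up to 0.0702). Pdgfd, a ligand of PDGFRb, stood at 0, 0, 0.0589 and 0 CPM in lung BrM, against 15.6, 22.4, 6.13, 15.3 and 16.5 CPM in non-tumor brain, 1 count against 1550. In the Notch and angiopoietin list, Notch3, Heyl and Notch1 fell and Notch2 and Vegfa rose, of 15 genes. The calls on Smad7 and Tgfbr3 were lost in 5 and 2 of 9 fits without 1 library. Heyl, a Notch target gene of mural cells, stood at 236, 11.4, 5.36 and 13.4 CPM in lung BrM, against 726, 992, 499, 980 and 834 CPM in non-tumor brain (log2 change -3.60 ± 0.94, adjusted p = 0.018, and -6.43 without mouse 51435), a call lost, like that on Notch3, without mouse 56195-56520 (adjusted p = 0.0526 and 0.0522). Notch1 stood at 112, 45, 62 and 52.2 CPM in lung BrM, against 394, 450, 377, 438 and 411 CPM in non-tumor brain (log2 change -2.61 ± 0.32, adjusted p = 0.000147).

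Genes of low oxygen and glycolysis rose in 7 of 18 cases, beside 9.91% of all genes, and none fell. Hk2, the hexokinase that commits glucose to glycolysis, stood at 31.9, 65.4, 48.7 and 26.8 CPM in lung BrM, against 1.92, 2.01, 1.25, 2.3 and 4.1 CPM in non-tumor brain (log2 change 4.22 ± 0.65, adjusted p = 0.000763). Egln3, an oxygen-sensing prolyl hydroxylase, rose by 3.68 ± 0.50 (adjusted p = 0.000272). Vegfa stood at 32.9, 82.1, 120.2 and 112 CPM in lung BrM, against 16.2, 14.4, 31.1, 19.3 and 22.8 CPM in non-tumor brain, and its call (log2 change 2.06, adjusted p = 0.0312) was lost without any 1 lung library other than 51435 or any 1 of 4 non-tumor libraries (adjusted p up to 0.12).

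Antigen presentation and checkpoint ligands moved in part. Of 10 MHC class I and loading genes 3 rose, and of 7 class II genes 3 rose, beside 9.91% of all genes. The call on B2m (log2 change 1.10, adjusted p = 0.0479) was lost in 7 of 9 fits without 1 library, that of mouse 51435 among them. The call on H2-Ab1 was lost in 4, while that on Psmb8 held in each. Cd74, the class II invariant chain, stood at 652, 52.9, 702 and 82 CPM in lung BrM, against 7.03, 46.1, 54.1, 4.28 and 10.4 CPM in non-tumor brain (log2 change 3.93 ± 0.92, adjusted p = 0.0103), high in the libraries of 51435 and 55169-70 and overlapping elsewhere. Of 23 interferon response genes 2 rose, Oas1a and Cxcl9, no larger a share than among all genes, and 8 of 9 fits without 1 library lost the call on Cxcl9. Of 13 checkpoint ligand genes 6 rose, again beside 9.91%, and none fell. The call on Cd274 was lost in 7 of 9 fits without 1 library, while those on Vtcn1, Nt5e and Cd276 held in each. Nt5e, the ectonucleotidase CD73, stood at 21.6, 44.3, 13.1 and 57.4 CPM in lung BrM, against 2.62, 1.91, 2.4, 1.22 and 1.89 CPM in non-tumor brain (log2 change 4.08 ± 0.84, adjusted p = 0.00521), and Cd276, the B7-H3 ligand, at 57.1, 62.3, 71.7 and 69.8 CPM in lung BrM, against 4.79, 9.54, 11.7, 3.47 and 7.23 CPM in non-tumor brain (log2 change 3.15 ± 0.58, adjusted p = 0.00251).

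**Figure D5:**
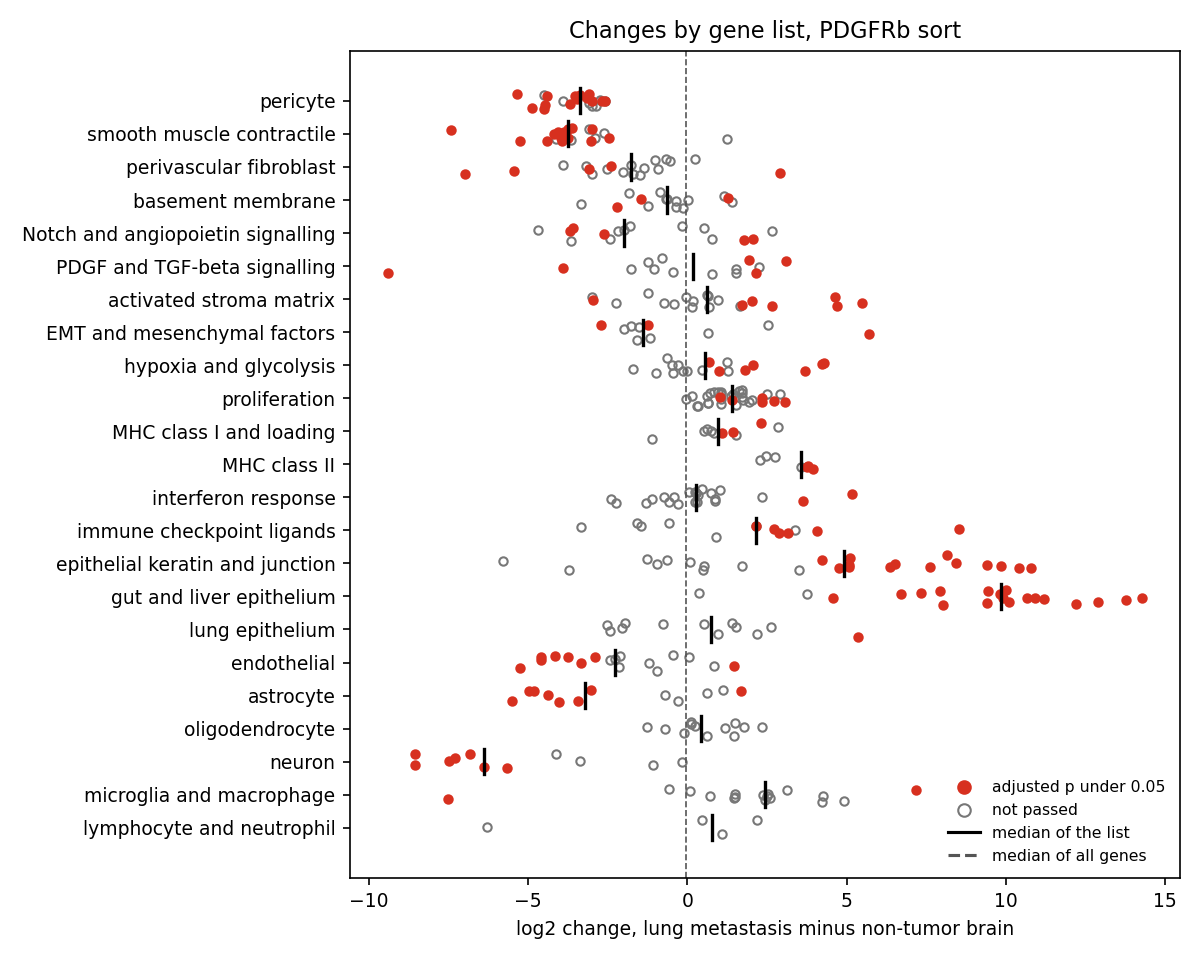
Log2 change of every tested gene, lung BrM minus non-tumor brain, by gene list (points are genes, filled where called at adjusted p under 0.05; the bar is the median of the list and the dashed line the median of all genes tested). Gut and liver genes have a median of 9.86 and epithelial genes of 4.93, while pericyte genes have a median of -3.38 and contractile genes of -3.75.

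Set against the PDGFRb sort of breast BrM in the same fit, the lung libraries differed most in the gut and liver genes. Here 524 genes (3.08%) were called higher and 407 (2.39%) lower in lung BrM. Without breast mouse 51950 they were 1413 and 1275, without lung mouse 51435 584 and 1010, and without lung mouse 54957, 55169-70 or 56195-56520 251 to 275 and 97 to 102. Without breast mouse 52599 they were 308 and 209, and without 52865 343 and 274. Of 20 gut and liver genes 18 were higher and none lower, and Hnf4a, at 163 to 282 CPM in lung BrM, was at 0 to 0.075 CPM in breast BrM (log2 change 13.14 ± 1.09, adjusted p = 3.74e-05). With the date in the column names as a covariate none of the 20 was called, beside 0.0705% of all genes called higher, while their median log2 change was 9.70, against 9.64 without it. Lung and breast libraries share no date, so the covariate fit compares them only through non-tumor libraries of the same dates. Krt8 was higher in lung BrM, at 2490 to 4335 CPM against 425, 609, 560 and 1259 CPM in breast BrM, with a call (log2 change 2.21 ± 0.60, adjusted p = 0.0479) that was lost without mouse 54957, 55169-70, 56195-56520 or breast mouse 51950, 52599 or 52865 (adjusted p 0.0732 to 0.127). Cldn3, Cldn7 and Grhl2 were lower, with the calls on Cldn7 and Grhl2 lost without mouse 55169-70 or 56195-56520.

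Mural genes separated the metastases mainly outside mouse 51435. Of 21 pericyte genes only Anpep was called lower in lung BrM, a call lost in 6 of 8 fits without 1 library, while all 21 were without mouse 51435, beside 5.65% of genes called lower in that fit. With the date covariate 17 of 21 were called lower, beside 0.529% of all genes, and with the lung and breast libraries alone none was, beside 0.656%. Mice 51435 and 55169-70 are each the only PDGFRb library of their date, so the covariate fit takes no change from them. It is thus no check apart from the fit without mouse 51435. Summed pericyte genes came to 9445, 383.1, 255.8 and 436.3 CPM in lung BrM and 6881 to 19370 CPM in breast BrM, so mouse 51435 lay within the breast range. With all libraries and no covariate, 13 of 23 interferon response genes and 6 of 10 MHC class I genes were lower in lung BrM, beside 2.39% of all genes. B2m was among them (log2 change -2.00 ± 0.39, adjusted p = 0.0111). With the date covariate 2 interferon response genes and 1 MHC class I gene were called lower, and with both groups alone 6 of 22 and 4 of 10.

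The dates carried in the file columns, whose meaning is not given in the sources used here, differ between the groups, and only 1 date holds both, with 2 lung and 2 non-tumor libraries. Within it Pdgfrb averaged 42.4 CPM in lung BrM and 1485 CPM in non-tumor brain, Krt8 3914 CPM in lung BrM and 2.58 CPM in non-tumor brain, and Hnf4a 234.4 CPM in lung BrM and 0 CPM in non-tumor brain. Fitted on those 4 libraries alone, all 21 pericyte genes and 19 of 20 contractile genes fell, beside 22.4% of all genes, and 22 of 24 gut and liver genes rose, beside 19.1%. With the date as a covariate in the full fit, 19 of 21 pericyte genes and 14 of 20 contractile genes fell, beside 1.79% of all genes, while 7 of 24 epithelial and 3 of 20 gut and liver genes rose, beside 1.6%. Mice 51435 and 55169-70 are each the only PDGFRb library of their date, so the covariate absorbs them. The change in that fit thus rests on the same 2 lung and 2 non-tumor libraries and is no separate check. With mouse 54135 grouped by its cell type label instead of its title, 2 of 21 pericyte genes (Ecm2 and Gper1) and 5 of 20 contractile genes fell, beside 3.95% of all genes. That grouping puts its library titled CD31 into the non-tumor PDGFRb group. On the scale of all libraries that library held 43270 CPM of summed endothelial and 170.5 CPM of summed pericyte genes.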

How the data were processed

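RNA of FACS-sorted cells was read in 28 libraries, of which the 4 lung and 5 non-tumor PDGFRb libraries are compared here. The authors deposited RSEM expected counts per gene, FPKM values and log2 normalized counts. Per the submitters' processing notes the genome was mm10 and the tools were limma 3.50.3, edgeR 3.36.0, RSEM 1.3.3 and STAR 2.7.9a, with no annotation release. Expected counts of 53647 gene IDs (52093 with a symbol) were rounded, filtered with filterByExpr, scaled by TMM and fitted with edgeR 4.0.16's robust quasi-likelihood test in R 4.3.3, the 3 groups of the PDGFRb sort sharing 1 estimate of the spread. The comparison of sorts used all 6 groups. In a further fit the library scale was the geometric mean of count + 0.5 over the 8 core pericyte genes. Fold changes come from these fits, CPM from TMM-scaled totals, and FPKM from the authors' deposited table with no further scaling. No replicates were near copies of each other (chi-square per degree of freedom at least 27.6). Only the comparison of lung with non-tumor libraries was tested on simulated data, which held no outlying library like that of mouse 51435. The comparison of sorts and the fit on the pericyte scale were not tested in this way. Alternatives used DESeq2 1.42.0 and limma 3.58.1.

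Genes were named by a rule: the sort and gate genes; the 10 called genes that rose most and the 10 that fell most, at an average log2 CPM from 3 upwards and with groups that do not overlap, gene models and pseudogenes left out; up to 4 called members per list by size; the core pericyte set; up to 4 members of highest level per list of other cells; and mural genes called on the pericyte scale. Genes named beyond it, the claudins and those beside the breast and CD31 comparisons among them, were chosen after their values were seen. The members and all 24 lists were chosen with earlier results of these data known.

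Mouse numbers are shared by the PDGFRb and CD31 libraries of the same animal, so the numbers pair these samples by design. Deviations from the group means of the 4 lung pairs correlated at -0.078 to -0.037 (median -0.0515), and of all 13 pairs at -0.099 to 0.259. Lung and non-tumor libraries share no mouse.

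Alternatives covered normalization, filters, the tool, the pseudocount (1 or 0.1 FPKM), the date in the column names, the title or label of mouse 54135, and each library left out. The fits without breast mouse 51950 and within 1 date were chosen after seeing the data. Gene IDs without a symbol held 0.188% to 1.12% of counts and stayed in the fits. Of 392 list symbols, 1 had no match. The 13 PDGFRb libraries held 7.11 M to 23.9 M counts. One gene that the naming rule selects is not reported here.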

Additional observations from a re-analysis of the deposited data

Results flagged for a closer look

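In a group of 4 or 5 libraries, the highest or the lowest was marked where its gap to the nearest other library, as a share of the group's range, exceeded Dixon's 95% critical value. Of 121 groups, 34 were marked. The critical value marks about 1 in 20 by chance in independent groups with a normal spread. The CPM values were not put on a log scale and the summed lists hold genes tested singly, so that rate need not apply here. The causes were not tested.

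The lung library of mouse 51435 stood high in 18 of the 28 marked lung groups. Among pericyte genes the gap was 0.984 of the range for Pdgfrb, 0.923 for Rgs5, 0.971 for Kcnj8, 0.989 for Atp13a5, 0.948 for Slc38a11, 0.979 for Gper1 and 0.98 for the summed list. Among contractile genes it was 0.842 for Pln, 0.882 for Myh11, 0.901 for Mylk, 0.925 for Actg2 and 0.952 for the summed list. It was 0.975 for Col6a3, 0.948 for Nid1, 0.93 for Tnc, 0.965 for the Notch target Heyl, 0.946 for summed fibroblast genes and 0.896 for summed endothelial genes. The same library stood low in Krt19 (0.835) and Pdgfc (0.961).

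The other lung libraries were marked in single genes. The library of 56195-56520 was high in Tff3 (0.931) and Slc1a2 (0.948) and low in Spp1 (0.915). That of 54957 was high in Stmn2 (0.921) and low in summed lung epithelium genes (0.954). That of 55169-70 was high in Ptprc (0.916), Tyrobp (0.897) and summed lymphocyte and neutrophil genes (0.955).

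In non-tumor brain the library of mouse 54132 was high in Epcam (0.833), Krt18 (0.84), Spp1 (0.808) and summed epithelial genes (0.814). Mouse 56740 was high in Krt19 (0.784) and mouse 54135 in Dpysl5 (0.787).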

How the results depend on the processing

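Counts of called genes moved with the tool, the covariate, the libraries in the fit and, where these changed it, the set of genes tested. For lung against non-tumor brain, with 1687 genes higher and 1290 lower, DESeq2 gave 2439 lower, limma-voom 2071 and limma on log2(FPKM + 1) 2037. The date covariate gave 273 and 305, the fit of both groups alone 3335 and 3341, leaving out both lung mice with 2 numbers 632 and 120, breast mouse 51950 left out 3512 and 3449, the shared date alone 3206 and 3757, and mouse 54135 by its label 669 lower. Leaving out 1 library gave 1149 to 1441 higher and 652 to 1662 lower. For lung against breast (524 and 407), DESeq2 gave 1096 and 1218, voom 976 higher, the date covariate 12 and 90, both groups alone 341 and 96, without both mice with 2 numbers 109 and 11, the deposited log2 values 611 lower, FPKM + 1 1079 and 656, FPKM + 0.1 860 higher, FPKM + 1 at a mean of at least 1 1099 and 741, and leaving out 1 library 251 to 1413 and 97 to 1275. For the PDGFRb against the CD31 sort (1899 and 1737), voom gave 2939 higher, both groups alone 1053 higher, without both mice with 2 numbers 483 and 696, mouse 54135 by its label 915 higher, and leaving out 1 library 1343 to 1981 and 1322 to 1762. On the pericyte scale (14742 and 71), Pdgfrb alone as the scale gave 171 lower, mouse 54135 by its label 305 and 30, and leaving out 1 library 14192 to 15505 and 21 to 74. The causes were not tested.

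With the mouse number as a replicate block, the PDGFRb sort had 726 genes higher and 1192 lower than the CD31 sort, and the block changed no call on the genes named from it. No paired analysis was possible for lung against non-tumor brain or breast because these groups share no mouse.

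Over all alternatives of named genes, 2869 values kept direction and side of the threshold, 536 lost and 52 gained a call, and 23 changed sign. Actg2 against non-tumor brain was -0.66 by voom, -1.36 with the date covariate, -1.89 without mouse 51435, -1.47 within 1 date, -0.79 on deposited log2 values, -0.59 on FPKM + 1 (with and without the minimum) and -0.80 on FPKM + 0.1. With mouse 54135 by its label, Flt1 was -3.0, Cd274 -0.17 and Oas1a -0.33, and on the pericyte scale Smtn -4.38 and Mylk -0.83. That setting puts the library titled CD31 of this mouse, rich in endothelial RNA, into the PDGFRb sort. Between the sorts, Abcc9 was -0.11 by voom and -1.93 without mouse 51435, and Ecm2 was 0.40 without both mice with 2 numbers. On the pericyte scale Pdgfrb was -9e-04 and Kcnj8 -0.78 with Pdgfrb as the scale, and Kcnj8 was -0.42 with summed counts, -0.16 without mouse 51435, -0.10 without 54957, -0.0039 without 56195-56520 and -0.0102 without non-tumor 54135. Fits without 1 library reached 1.64 for Actg2, 1.93 for Abcc9 and 0.31 for Kcnj8. Depth limits genes under 0.12 to 0.242 CPM, the level of 3 counts.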
